A study of Mus musculus with 16 samples.

Results

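Genes that adult mouse hearts express mainly in the atria, Myl4, Myl7, Sln, Bmp10, Stard10, Kcnj3 and Gja5, were followed in polyA RNA from ventricular free walls. They were chosen by name and are 7 of the 23946 genes in the deposited table of FPKM, a level per length of transcript and depth of library that allows genes to be set side by side. The study asked which transcripts differ in a right ventricle failing under pressure overload, and the atrial genes were examined here for how they varied among libraries labelled as ventricle. All 16 libraries came from adult male mice of the inbred FVB strain, aged 10 to 13 weeks. In 4 right ventricular (RV) and 4 left ventricular (LV) libraries the label was PS, read here as banding of the pulmonary artery, a narrowing that loads the right ventricle. The other 4 RV and 4 LV libraries were from mice with a sham operation. No genotype or drug was named. The labels do not say that libraries came from separate animals, so p-values measure the spread between these libraries, which may be technical.

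In the fetal mouse heart the atrial program is broader than in the adult, and several of its genes are silenced in ventricular muscle as the heart matures. Natriuretic peptides and fetal sarcomere genes can return in a loaded ventricle, which is one source of atrial-type transcripts there. Another is tissue, since the atria and the valve ring adjoin the base of each free wall. In bulk RNA, fewer cells of a type and less RNA per cell cannot be told apart, and no atrial library was among the samples. Whether atrial tissue was present was therefore not tested, and the values below are given beside those of other atrial, ventricular, fetal and conduction genes.

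Myl7 and Myl4, the atrial regulatory and essential myosin light chains, are both on chromosome 11 and are shown first because their transcripts varied together over libraries. Each line gives 250 bases before and 50 bases after the start of the gene, 5′ to 3′ on its own strand, from RefSeq on GRCm38.p6 (Myl7 chr11:5898733-5899032, minus strand; Myl4 chr11:104550413-104550712, plus strand). Capitals mark a CArG box, the motif of serum response factor, and the GATA factor motif TGATAA.

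Myl7: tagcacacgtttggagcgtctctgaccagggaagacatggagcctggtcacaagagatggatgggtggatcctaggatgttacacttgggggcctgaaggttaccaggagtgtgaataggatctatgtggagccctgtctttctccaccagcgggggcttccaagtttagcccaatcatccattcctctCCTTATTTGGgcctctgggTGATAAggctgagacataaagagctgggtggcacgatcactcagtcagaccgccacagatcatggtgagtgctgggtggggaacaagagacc

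Myl4: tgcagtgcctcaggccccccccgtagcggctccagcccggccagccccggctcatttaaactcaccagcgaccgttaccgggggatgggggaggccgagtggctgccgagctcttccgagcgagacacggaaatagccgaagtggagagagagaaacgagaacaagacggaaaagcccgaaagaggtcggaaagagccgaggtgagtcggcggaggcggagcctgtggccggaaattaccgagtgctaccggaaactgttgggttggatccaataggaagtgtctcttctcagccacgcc

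The Myl7 window held 1 CArG box, whose first base lies 61 bases before the start, and 1 TGATAA, 42 bases before it. The Myl4 window held neither, nor a MEF2 box, AGATAA or TATAAA, and GGAAA, the core of NFAT motifs, occurred in it 5 times. Searched on both strands of the 32851 promoter windows, a CArG box was found in 1.63%, a MEF2 box in 3.19%, TGATAA in 9.05%, AGATAA in 11.2%, TATAAA in 13.6% and GGAAA in 61.3%. These matches describe letters in a window and say nothing of whether a factor binds there.

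The 3 muscle genes of the set, Myl4, Myl7 and Sln, did not pass a test between banded and sham libraries in either ventricle, and the libraries of each group spread over a wide range. Myl4 stood at 113, 39.5, 35.9 and 5.73 FPKM in RV banded libraries PS_9552, PS_9553, PS_9561 and PS_9564, against 50.7, 69.95, 33.8 and 1.75 FPKM in RV sham libraries 1 to 4. It stood at 2.88, 103, 2.90 and 2.13 FPKM in LV banded libraries PS_9552, PS_9553, PS_9561 and PS_9564, against 139, 9.25, 58.7 and 20.2 FPKM in LV sham libraries 1 to 4. In either ventricle the groups overlapped, and 1 LV banded library, PS_9553, stood apart from the other 3.

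Myl7 showed the same library PS_9553 as high among the LV banded ones. Its levels were 42.1, 13.5, 11.5 and 0.513 FPKM in the RV banded libraries in the same order, against 70.3, 134, 43.9 and 4.58 FPKM in the RV sham libraries. In the left ventricle it was listed at 0, then at 122, 0.935 and 0.521 FPKM, in the banded libraries, against 124, 13.1, 83.5 and 27.8 FPKM in the sham libraries. In all, 3 of the 4 LV banded libraries were thus below 1 FPKM, a level that rested on an estimated 0.946 to 2.76 fragments where it was above 0.

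Sln encodes sarcolipin, a small membrane protein that inhibits the calcium pump of the sarcoplasmic reticulum. It was at 94.5, 29.4, 16.6 and 0.951 FPKM in the RV banded libraries, against 21.1, 47.0, 42.0 and 0 FPKM in the RV sham libraries. In the left ventricle it was at 0.775, 33.4, 0.581 and 1.06 FPKM in the banded libraries, against 85.1, 6.65, 38.5 and 14.4 FPKM in the sham libraries. RV banded library PS_9564, RV sham library 4 and the 3 LV banded libraries other than PS_9553 were low for Myl4, Myl7 and Sln alike.

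**Figure D1:**
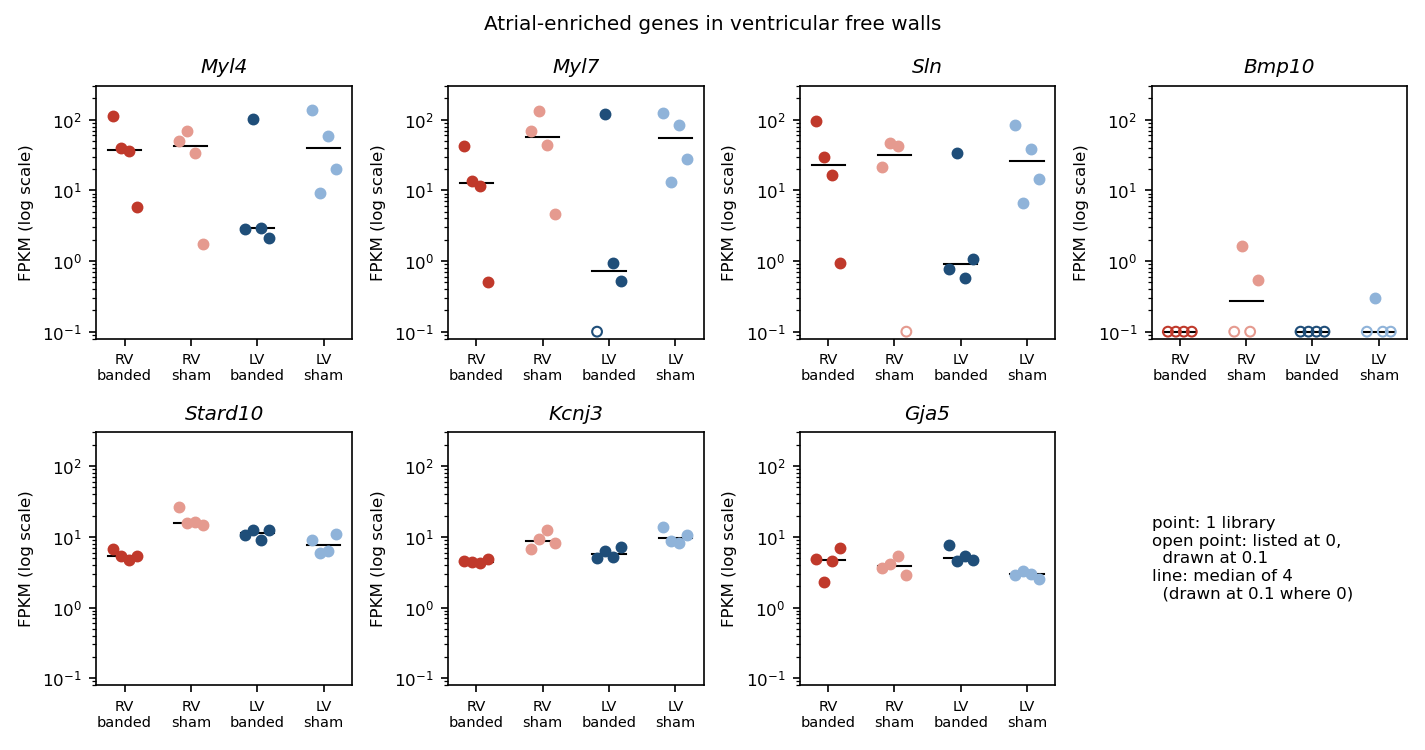
Level of each of the 7 genes in FPKM (log axis) in the 4 libraries of each group, with points for libraries, lines for medians and open points at 0.1 for libraries listed at 0. Myl4, Myl7 and Sln are spread widely in each group, with LV banded library PS_9553 at 103, 122 and 33.4 FPKM, whereas Stard10, Kcnj3 and Gja5 stay within 2.32 to 26.2 FPKM.

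A single limma fit of the 4 groups to log2(FPKM + 1), with Benjamini-Hochberg adjustment over the 12100 genes tested, gave wide intervals for these 3 genes. In the banded RV, Myl4 differed from sham by a log2 value of 0.43 (95% interval -2.10 to 2.95, limma adjusted p = 0.827), Myl7 by -1.92 (-4.77 to 0.94, adjusted p = 0.326) and Sln by 0.28 (-2.49 to 3.05, adjusted p = 0.901). In the banded LV, Myl4 differed by -2.13 (-4.66 to 0.39, limma adjusted p = 0.243), Myl7 by -3.39 (-6.24 to -0.53, adjusted p = 0.101) and Sln by -2.74 (-5.51 to 0.03, adjusted p = 0.17). The sign for Myl4 and Sln in the right ventricle turned when 1 library was left out, with ranges of -0.62 to 1.19 and -1.01 to 1.34. In the left ventricle the signs held, and without banded library PS_9553 the difference of Myl7 was -4.99 as deposited (limma adjusted p = 0.0132) and -5.20 rescaled (adjusted p = 0.0512), so it did not pass on both scales. A further fit without LV banded library PS_9553 and LV sham library 1, the highest library for Myl4 in each group, gave -4.51 for Myl7 as deposited (limma adjusted p = 0.0391). That pair was chosen after the values were seen.

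The spread within groups was large beside that of other genes. The residual standard deviation of rescaled values was 2.04 for Myl4, 2.26 for Myl7 and 2.23 for Sln on the log2 scale, which ranked 91st, 85th and 87th from the largest of 12100 genes. The median gene had 0.328, close to the 0.347 of Stard10, 0.301 of Kcnj3 and 0.319 of Gja5. The 3 muscle genes also varied together: over the 16 libraries, Pearson r was 0.977 between Myl4 and Sln, 0.919 between Myl4 and Myl7 and 0.903 between Myl7 and Sln. For deviations from the group means r was 0.971, 0.98 and 0.938. Among 6662 candidate genes with a mean of at least 5 FPKM, each of the 3 had the other 2 as its nearest neighbours, and the next were Sash1 for Myl4 (0.749), Atcayos for Myl7 (0.728) and Atxn7l3 for Sln (0.794). These r values describe 16 libraries of 4 groups and carry no test. Genes with a lower mean, such as Mybphl, an atrial gene described below, were not candidates.

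**Figure D2:**
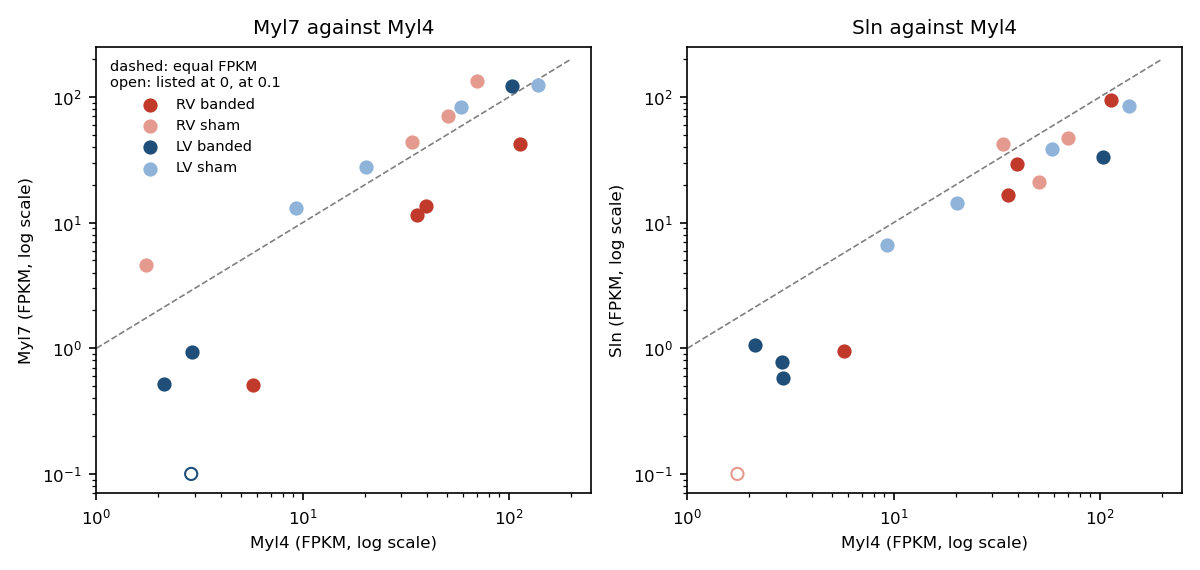
Myl7 (left) and Sln (right) against Myl4 in each of the 16 libraries, both axes in FPKM on a log scale, with the dashed line at equal FPKM and open points at 0.1 for libraries listed at 0. The 4 RV banded libraries lie below the line for Myl7, whereas the RV and LV sham libraries lie above it, except LV sham library 1 at 139 FPKM of Myl4 and 124 FPKM of Myl7.

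Although their levels did not separate the groups, the proportion of Myl7 to Myl4 did in the right ventricle. The ratio of their FPKM was 0.371, 0.343, 0.321 and 0.0894 in RV banded libraries, against 1.39, 1.92, 1.30 and 2.62 in RV sham libraries. All RV banded libraries were below all RV sham libraries, at a ratio 0.149 of sham (log2 difference of FPKM + 0.1 of -2.74, two-sided exact permutation p = 0.0286, the smallest that 4 against 4 allows, n = 4 each). In the left ventricle the ratio was 0, 1.18, 0.323 and 0.245 in banded libraries, against 0.895, 1.42, 1.42 and 1.38 in sham libraries. The LV groups overlapped through library PS_9553 alone (log2 difference -2.34, exact permutation p = 0.0571, n = 4 each). These were 2 of 10 ratio comparisons, and after Benjamini-Hochberg adjustment over the 10 the exact permutation values were 0.0714 and 0.114, so neither passed 0.05.

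Sln relative to Myl7 separated the RV groups in the opposite direction. Myl7 is the upper term of the first ratio and the lower term of this one, so these are not independent results. The ratio of Sln to Myl7 was 2.25, 2.17, 1.44 and 1.86 in RV banded libraries, against 0.300, 0.350, 0.957 and 0 in RV sham libraries (log2 difference 3.11, exact permutation p = 0.0286, adjusted 0.0714, n = 4 each), and the difference was 2.0 without RV sham library 4. In the LV the difference was 1.29 with overlapping groups (exact permutation p = 0.343, adjusted 0.429, n = 4 each). Sln relative to Myl4 overlapped in the right ventricle, at 0.834, 0.744, 0.463 and 0.166 in banded libraries, against 0.416, 0.672, 1.24 and 0 in sham libraries.

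Depth limits these ratios. In RV sham library 4, the estimated fragments were 1.73 for Myl4 and 2.39 for Myl7, and in RV banded library PS_9564 Myl7 rested on an estimated 0.706. RV sham library 2, the shallowest, had an estimated 19.9 fragments of Myl4 and 20.1 of Myl7. Restricted to libraries with both genes at 5 FPKM or more, an alternative added after the values were seen, the difference of Myl7 to Myl4 in the right ventricle was -2.13 and that of Sln to Myl7 was 2.04, with 3 libraries per group. In the left ventricle the same restriction kept only banded library PS_9553, where the differences from sham were -0.09 and -0.97. Transcript length differs between these genes, 590 nt for Myl7, 943 nt for Myl4 and 1318 nt for Sln. After a correction within each library for length and GC content of transcripts, the RV differences were -2.02 for Myl7, 0.49 for Myl4 and 0.06 for Sln.

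**Figure D3:**
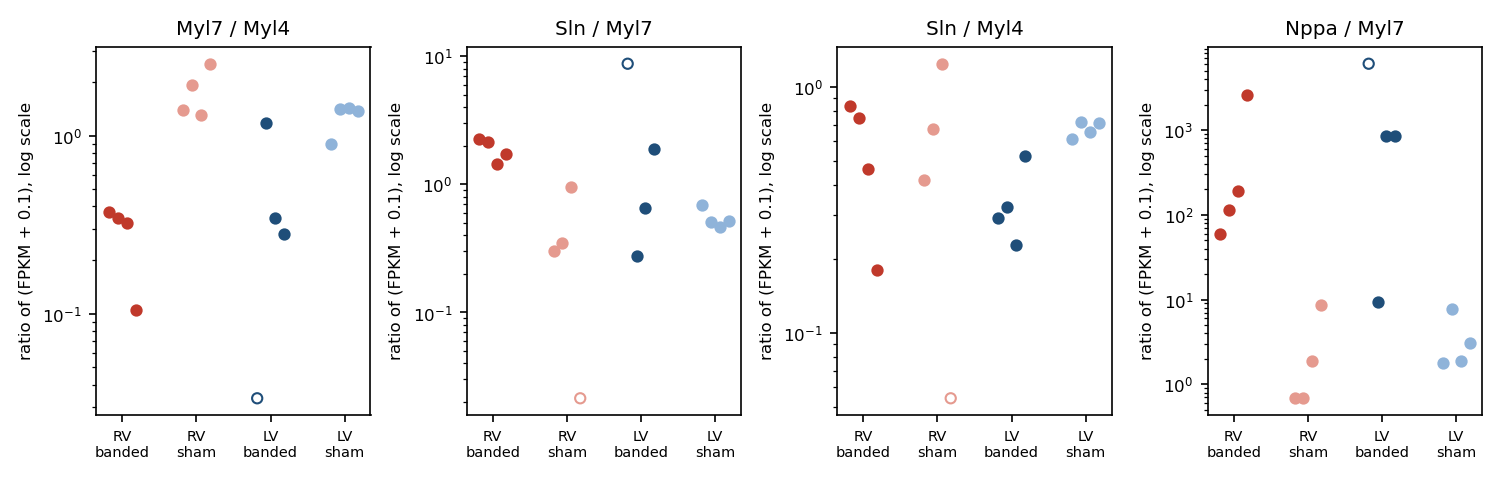
Ratios of Myl7 to Myl4, Sln to Myl7, Sln to Myl4 and Nppa to Myl7 in each library, as ratios of FPKM + 0.1 on a log axis, with open points where 1 of the genes was listed at 0. The RV banded and RV sham libraries do not overlap for Myl7 to Myl4, Sln to Myl7 and Nppa to Myl7, and LV banded library PS_9553 lies nearest to the sham libraries in Myl7 to Myl4 and Nppa to Myl7.

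Against ventricular light chains, the atrial ones were minor in all groups. Myl2, the ventricular regulatory light chain, averaged 5394 ± 1137 FPKM in RV banded, 9743 ± 932 in RV sham, 15814 ± 1823 in LV banded and 6648 ± 1899 FPKM in LV sham libraries (SD, n = 4 each). Myl3, the ventricular essential light chain, was between 2768 and 6828 FPKM in every library. The log2 ratio of Myl7 to Myl2 differed by -1.35 between RV banded and sham and by -6.01 between LV banded and sham (exact permutation p = 0.457 and 0.0857, adjusted 0.508 and 0.122, n = 4 each). For Myl4 to Myl3 the differences were 1.09 and -3.09 (exact permutation p = 0.543 and 0.0857, adjusted 0.543 and 0.122, n = 4 each), and the RV value was -0.105 without sham library 4. Of 8 ventricular muscle genes, Myl2, Myl3 and Tnni3, cardiac troponin I, fell in the banded RV, and Myl2 and Tnni3 rose in the banded LV. Over all tested genes 4.93% fell in the RV and 2.44% rose in the LV.

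Bmp10, a growth factor secreted by atrial muscle, was at or near the limit of detection. It was listed at 0 in 13 of 16 libraries, among them all 4 RV banded and all 4 LV banded libraries. The exceptions were RV sham library 2 at 1.62 FPKM, RV sham library 4 at 0.540 FPKM and LV sham library 2 at 0.297 FPKM. Each rested on an estimated 2.58 to 3.09 fragments of a transcript of 4490 nt. In the libraries listed at 0, 3 fragments would correspond to 0.0611 to 0.912 FPKM. Bmp10 missed the filter of 1 FPKM in at least 4 libraries and was not tested in the main fit. In a fit without the filter the RV difference was -0.50 (limma adjusted p = 0.159), a value set by 2 sham libraries.

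Genes for receptors and targets of BMP10 were counted beside it. Of 13 genes listed, 12 were tested, and the closely related ligand Gdf2 was listed at 0 in all 16 libraries. In the banded RV, Bmpr2, the type II receptor, and Smad7, an inhibitor induced by the pathway, rose by log2 values of 1.03 and 0.68 (limma adjusted p = 0.0324 and 0.0173). Tcap, a Z-disc protein that binds BMP10 in muscle cells, fell by 0.86 on the log2 scale (limma adjusted p = 0.0187). In the banded LV, Eng, a co-receptor of endothelial cells, rose by 0.91 (limma adjusted p = 0.00262) and Tcap differed by 1.195 as deposited only. The median of the 12 genes was 0.21 in the RV and 0.51 in the LV, against 0.26 and 0.33 over all tested genes. On both scales 15.5% of all tested genes passed in the RV and 2.74% in the LV.

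Of the members, Stard10 and Kcnj3, fell in the banded right ventricle, and Kcnj3 also fell in the banded left ventricle. A gene is said to rise or fall where limma's adjusted p was below 0.05 in 1 direction both as deposited and after rescaling, in which a library is divided by the median, over 8211 genes, of its ratios to the geometric mean of all libraries. In the RV, 15.5% of tested genes passed, 4.93% lower and 10.5% higher, beside 2 of 6 members tested. In the LV, 2.74% passed, 0.298% lower and 2.44% higher, beside 1 of 6 members.

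Stard10, a phospholipid transfer protein of the START family, stood at 6.78, 5.33, 4.73 and 5.43 FPKM in the RV banded libraries, against 26.2, 15.9, 15.98 and 14.8 FPKM in the RV sham libraries. The groups did not overlap, as was the case for 17.7% of tested genes. Stard10 fell by 1.52 ± 0.22 (SE) on the log2 scale as deposited and by 1.69 rescaled (limma adjusted p = 0.00041 and 0.000303). In the left ventricle it stood at 10.6, 12.5, 9.04 and 12.4 FPKM in banded libraries, against 8.98, 5.92, 6.41 and 10.9 FPKM in sham libraries, with a log2 difference of 0.45 (limma adjusted p = 0.172, rescaled 0.08). The groups overlapped through LV sham library 4 alone.

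The banding effects on Stard10 differed between the ventricles. The RV effect minus the LV effect was -1.97 ± 0.31 (SE, limma adjusted p = 0.00121) and -1.77 rescaled (adjusted p = 0.00799), in a comparison where 3.98% of genes passed, 3.45% in the negative direction. In sham hearts Stard10 was higher in the RV than in the LV, at 18.2 ± 5.36 against 8.04 ± 2.31 FPKM (SD, n = 4 each, log2 difference 1.09, limma adjusted p = 0.0163, rescaled 1.04), where 3.88% of genes passed and 2.55% passed as higher in the RV. In the same comparison 5 of 9 islet genes tested were higher in the RV (Chga, Chgb, Gcg, Iapp and Resp18, list median 1.97), as was Msln among 3 mesothelial genes, and their part in the Stard10 difference was not tested. The Stard10 call was lost without LV sham library 3 (limma adjusted p = 0.0612) and in a fit to the 8 sham libraries alone (0.0724). In banded hearts the order was turned, at 5.57 ± 0.864 FPKM in the RV against 11.1 ± 1.64 FPKM in the LV (SD, n = 4 each). That difference of -0.88 passed as deposited (limma adjusted p = 0.0345) but not rescaled (-0.73, adjusted p = 0.112), where 2.89% of genes were lower in the RV as deposited and 1.57% passed on both scales in either direction. As deposited this call was lost in 7 of 8 omissions of 1 library (highest limma adjusted p = 0.107). By group median the order was RV sham at 15.9, LV banded at 11.5, LV sham at 7.69 and RV banded at 5.38 FPKM.

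Kcnj3 encodes GIRK1, a subunit of the potassium channel that acetylcholine opens in atrial and pacemaker cells. It stood at 4.49, 4.43, 4.26 and 4.82 FPKM in the RV banded libraries, against 6.82, 9.47, 12.5 and 8.09 FPKM in the RV sham libraries. In the LV it stood at 5.05, 6.22, 5.25 and 7.11 FPKM in banded libraries, against 13.6, 8.72, 8.27 and 10.7 FPKM in sham libraries. The groups did not overlap in either ventricle; 23.2% of tested genes were likewise free of overlap in the LV. Kcnj3 fell by 0.87 ± 0.20 (SE) on the log2 scale in the RV (limma adjusted p = 0.00844, rescaled -1.03) and by 0.70 in the LV (limma adjusted p = 0.0274, rescaled -1.05). The difference between these effects was -0.17 (95% interval -0.76 to 0.43, limma adjusted p = 0.826) and 0.02 rescaled.

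The calls for Kcnj3 were less firm than those for Stard10. In the RV the adjusted p was 0.0511 in a limma fit to the 8 RV libraries and 0.105 with the 2 RV banded libraries that had a value for Rn45s, the ribosomal RNA precursor. Stard10 passed in both (limma adjusted p = 0.026 with the Rn45s libraries). Over all genes 881 and 415 passed in these fits, against 2108 in the main fit. In the LV the Kcnj3 call was lost as deposited without banded library PS_9552, PS_9553 or PS_9561 or sham library 1 or 4, with differences of -0.79 to -0.57 over all 8 omissions (highest limma adjusted p = 0.0881). Without sham library 2 it was lost on the rescaled values (limma adjusted p = 0.057). By group median the order was LV sham at 9.71, RV sham at 8.78, LV banded at 5.73 and RV banded at 4.46 FPKM. The sham ventricles differed by -0.15 (RV minus LV, 95% interval -0.58 to 0.27).

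Partners of Kcnj3 in the muscarinic potassium current were also tested. Of 8 genes including Kcnj3, Kcnj5, which encodes the GIRK4 subunit of the same channel, fell in the RV by 0.68 on the log2 scale (limma adjusted p = 0.0426), at 7.38 ± 1.81 FPKM in banded and 12.6 ± 3.92 FPKM in sham libraries (SD, n = 4 each). In the LV Kcnj5 was at 16.3 ± 2.36 FPKM in banded and 13.3 ± 1.99 FPKM in sham libraries, a difference of 0.28 (limma adjusted p = 0.419). Gnb1, a G protein beta subunit, rose by 0.65 in the RV (limma adjusted p = 0.0291). Chrm2, the M2 muscarinic receptor, differed by 0.35 in the RV and by -0.16 in the LV (limma adjusted p = 0.354 and 0.71). Across all tested genes 10.5% rose and 4.93% fell in the RV.

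**Figure D4:**
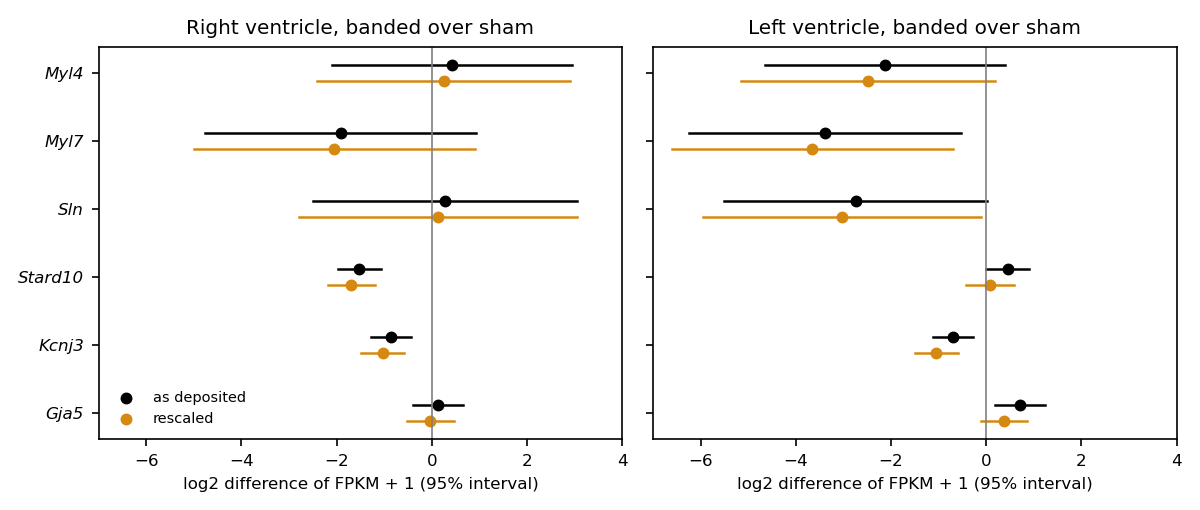
Log2 difference of FPKM + 1 between banded and sham libraries for the 6 members tested, in the right (left panel) and left ventricle (right panel), with 95% intervals from limma, as deposited (black) and rescaled (orange). Stard10 lies at -1.52 in the RV and 0.45 in the LV, Kcnj3 at -0.87 and -0.70, and the intervals of Myl4, Myl7 and Sln are several log2 units wide.

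Gja5, which encodes connexin 40 of atrial muscle, the conduction system and arterial endothelium, did not pass on both scales in either ventricle. It was at 4.82, 2.32, 4.61 and 6.91 FPKM in the RV banded libraries, against 3.68, 4.09, 5.36 and 2.90 FPKM in the RV sham libraries, with overlapping groups (log2 difference 0.13, limma adjusted p = 0.733, rescaled -0.03). In the LV it was at 7.72, 4.48, 5.31 and 4.72 FPKM in banded libraries, against 2.92, 3.32, 3.003 and 2.54 FPKM in sham libraries. The LV groups did not overlap, and the difference was 0.71 (95% interval 0.18 to 1.24, limma adjusted p = 0.0663) as deposited and 0.38 (adjusted p = 0.387) rescaled. In a fit to the 8 LV libraries alone it passed as deposited (limma adjusted p = 0.0234), where 2780 genes passed, against 1764 in the main fit.

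Genes of the cell types that carry Gja5 were counted beside it. Of 7 arterial endothelial genes, Sox17 and Efnb2 rose in the banded RV by 1.35 and 1.08 (limma adjusted p = 0.00107 and 0.00261), and 0 passed limma on both scales in the LV, where 3 passed as deposited and 4 had an unadjusted p below 0.05. Of 6 genes of endothelium in general, Pecam1 rose in the RV by 0.64 (limma adjusted p = 0.0316), with a list median of 0.49 against 0.26 over all genes. In the LV 0 of these 6 passed limma on both scales, 2 passed as deposited and 3 had an unadjusted p below 0.05. Of 8 conduction genes tested, Hcn4, the pacemaker channel, Cacna1g, a T-type calcium channel, and Scn10a, a sodium channel, fell in the RV by 1.27, 1.39 and 0.70 on the log2 scale (limma adjusted p = 0.0017, 0.000773 and 0.0157). Hcn4 was at 0.494, 1.04, 0.314 and 0.519 FPKM in RV banded libraries, against 2.55, 2.97, 2.69 and 2.90 FPKM in RV sham libraries. Scn10a was at 1.04 to 1.58 FPKM in RV sham libraries, the shallowest group. Fragments were not estimated for Hcn4, Cacna1g or Scn10a. In the LV 0 of the 8 passed limma and 1 had an unadjusted p below 0.05. Beside these lists, 10.5% of all tested genes rose and 4.93% fell in the RV, and 2.74% passed in the LV. Among 4 connexins tested, Gjc1, connexin 45, rose in the RV by 1.12 (limma adjusted p = 0.00397), and Gja1, connexin 43, the main ventricular one, differed by 0.52 (adjusted p = 0.101).

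Genes of the calcium pump and its regulators were counted beside Sln. Of 5 tested, Sln included, 0 passed limma on both scales in the RV or the LV, and 1 and 2 had an unadjusted p below 0.05. In the LV, Hrc and Pln passed as deposited only (1.07 and 0.70, limma adjusted p = 0.00524 and 0.043), and their rescaled differences were 0.66 and 0.30 (adjusted p = 0.056 and 0.33). Pln, phospholamban, the main ventricular inhibitor of the pump, averaged 734 ± 191 FPKM in RV banded and 700.05 ± 58.1 FPKM in RV sham libraries (SD, n = 4 each, log2 difference 0.04, limma adjusted p = 0.927). Atp2a2, the pump itself, averaged 890.1 ± 202 FPKM in RV banded and 1043 ± 164 FPKM in RV sham libraries (-0.24, limma adjusted p = 0.377). Of 7 relatives of Stard10 with a START domain, 0 passed limma on both scales in any of the 5 comparisons. None of the 7 had an unadjusted p below 0.05 between banded and sham libraries of either ventricle, and Stard3 had the smallest p in the RV (log2 difference -0.44, limma adjusted p = 0.178).

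Other genes that are more abundant in atria than in ventricles moved in different directions in the banded RV. Of 12 such genes, 10 were tested, 3 rose and 2 fell, with a median of 0.30 as deposited and 0.13 rescaled, against 0.26 and 0.11 over all genes. Among all tested genes 10.5% rose and 4.93% fell. Nppa, atrial natriuretic peptide, Pam, the atrial granule protein that amidates peptides, and Dkk3, a secreted Wnt modulator, rose by log2 values of 4.94, 1.74 and 2.001 (limma adjusted p = 3.21e-07, 7.96e-05 and 0.0075). Dkk3 stood at 5.40 to 12.9 FPKM in RV banded and 0.778 to 2.57 FPKM in RV sham libraries. Its sham values rested on an estimated 0.986 to 7.23 fragments, so the size of its rise is uncertain. Sbk2, an atrial kinase, fell by 2.22 on the log2 scale (limma adjusted p = 0.00142), and Kcnj5 fell as above. Nppa was at 2535, 1568, 2205 and 1594 FPKM in RV banded libraries, while Myl7 in the same libraries was at 42.1, 13.5, 11.5 and 0.513 FPKM. RV banded library PS_9564 held 1594 FPKM of Nppa with 0.513 FPKM of Myl7 (an estimated 0.706 fragments) and 0.951 FPKM of Sln. The ratio of Nppa to Myl7 was 60.3 to 3109 in RV banded libraries and 0.684 to 8.73 in RV sham libraries, which did not overlap (log2 difference 7.18, exact permutation p = 0.0286, adjusted 0.0714, n = 4 each). In the LV it differed by 7.24 (exact permutation p = 0.0286, adjusted 0.0714, n = 4 each), with 9.41 in banded library PS_9553, the lowest banded value, and 1.80 to 7.69 in sham libraries. The other 3 LV banded libraries held at most an estimated 2.76 fragments of Myl7, so this size rests on the pseudocount of 0.1, and with both genes at 5 FPKM or more it was 1.65 with 1 banded library left.

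Mybphl, a myosin binding protein of atrial muscle, was high in many of the libraries that were high for Myl4. It was at 11.8, 2.77, 3.94 and 0.723 FPKM in RV banded libraries, against 0, 15.9, 4.50 and 0 FPKM in RV sham libraries. In the LV it was at 0.200, 4.46, 0 and 0 FPKM in banded libraries, against 9.80, 1.10, 4.76 and 1.04 FPKM in sham libraries. RV sham library 1 was the exception, at 0 with 50.7 FPKM of Myl4, where 3 fragments correspond to 1.95 FPKM of Mybphl. The values in RV sham libraries 2 and 3 rested on an estimated 6.55 and 3.71 fragments. In RV sham library 4, also at 0, a level of 3 fragments corresponds to 2.09 FPKM, so the RV sham values of Mybphl are uncertain. Among the LV banded libraries, PS_9553 was the highest for Myl4, Myl7, Sln, Mybphl, Dkk3 (7.71 FPKM) and Nppa (1147 FPKM), but not for Sbk2 (1.81 FPKM, against 5.69 FPKM in library PS_9552).

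Fetal and load-responsive ventricular genes were counted in the same libraries. Of 8 tested, 5 rose in the banded RV, namely Acta1, Ankrd1, Myh7, Nppb and Xirp2, with a median over the 8 of 1.84. In the LV Myh7 and Xirp2 rose, with a median of 0.95. The share of all tested genes that rose was 10.5% in the RV and 2.44% in the LV. RV banded libraries PS_9564 and PS_9552 were the lowest and the highest of that group for Myl4, Myl7 and Sln. Myh7, the fetal beta myosin heavy chain, was at 753 FPKM in PS_9564 and 273 FPKM in PS_9552. Acta1 was at 758 and 428, Acta2 at 156 and 128, Ankrd1 at 3481 and 2605.5 and Xirp2 at 127 and 45.3 FPKM in the same order. Nppb went the other way, at 894 and 1033 FPKM, as did Tagln, at 10.7 and 20.3, and Cnn1, at 0.145 and 1.25 FPKM. Nppa, outside this list, did so too, at 1594 and 2535 FPKM. These values are as deposited, and the factors used for rescaling were 1.26 for PS_9564 and 0.896 for PS_9552. Divided by these factors, Ankrd1 and Acta2 would be lower in PS_9564, while Myh7, Acta1 and Xirp2 would stay higher. Whether the fetal and load-responsive genes or Nppa vary with Myl4, Myl7 and Sln was not tested.

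Transcripts of tissues outside the heart wall moved with some of these results. The summed level of 14 pancreatic islet genes was 66.9 to 157 FPKM in RV banded and 657 to 2170 FPKM in RV sham libraries, and 25.4 to 59.7 FPKM in LV banded and 88.6 to 2113 FPKM in LV sham libraries. Of 9 islet genes tested, 7 fell in the banded RV and 1, Ins2, in the banded LV, while G6pc2, an islet enzyme, was at 0 in all libraries. The share of all tested genes that fell was 4.93% in the RV and 0.298% in the LV. Of 8 acinar genes none passed the filter, and their sum was at most 3.76 FPKM. LV sham library 1 held 2113 FPKM of islet transcripts with 8.98 FPKM of Stard10 and the highest Kcnj3, 13.6 FPKM. RV sham library 1, the highest for Stard10 at 26.2 FPKM, held 1822 FPKM of islet transcripts. Without RV sham libraries 1 and 3, those with the most islet transcripts in that group, Stard10 differed by -1.32 and Kcnj3 by -0.83 (limma adjusted p = 0.00517 and 0.0279), an omission chosen after the values were seen. The RV sham libraries that remained, 2 and 4, still held 1012 and 657 FPKM of islet transcripts, above all RV banded libraries. The omission therefore cannot separate islet transcripts from banding, and their part in the differences of Stard10 and Kcnj3 was not tested. Msln and Upk3b, markers of the mesothelium on the heart surface, fell in the banded RV, and the sum of 5 mesothelial genes was 3.89 to 6.17 FPKM in RV banded and 5.55 to 22.6 FPKM in RV sham libraries; the part of mesothelium in the members' values was not tested. Of 9 skeletal muscle genes, 2 were tested and neither changed on both scales.

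**Figure D5:**
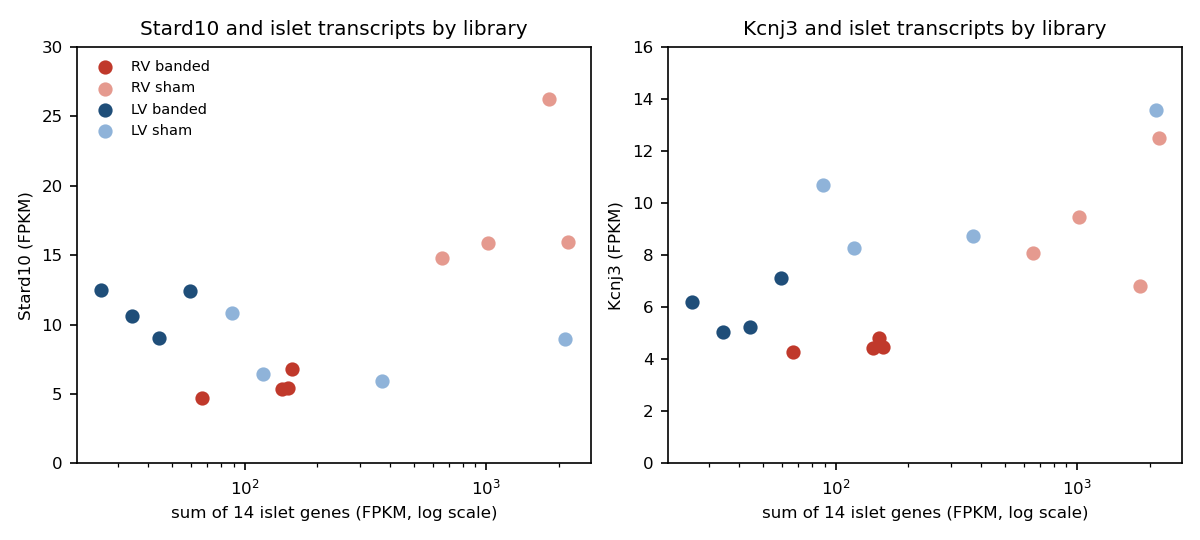
Stard10 (left) and Kcnj3 (right) in FPKM against the summed FPKM of 14 pancreatic islet genes on a log axis, 1 point per library. RV sham library 1, the highest for Stard10 at 26.2 FPKM, holds 1822 FPKM of islet transcripts. LV sham library 1 holds 2113 FPKM of them with 8.98 FPKM of Stard10. The part of islet transcripts was not tested.

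The genes most like Stard10, Kcnj3 and Gja5 were none of the other members. Gja5 and Bmp10, below the mean of 5 FPKM required, were not candidates and could not appear as neighbours. For Stard10 these were Fbp2, Etfb and Uqcrc1 (Pearson r 0.917, 0.908 and 0.905 over 16 libraries), for Kcnj3 Scn4a, Acot2 and Mylk4 (0.884, 0.881 and 0.858) and for Gja5 Tut1, Tubgcp2 and Bcas3 (0.775, 0.74 and 0.73). For deviations from the group means r was 0.693, 0.616 and 0.57 for the neighbours of Stard10 and 0.406, 0.386 and 0.312 for those of Kcnj3, and 0.866, 0.683 and 0.76 for those of Gja5.

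Between ventricles, Myl4, Myl7, Sln and Gja5 did not pass in sham or in banded hearts. By group median Myl4 stood at 42.3 FPKM in RV sham, 39.4 in LV sham, 37.7 in RV banded and 2.89 FPKM in LV banded libraries, and the order of the first 3 lay well within their ranges. Median Myl7 was 57.1 in RV sham, 55.6 in LV sham, 12.5 in RV banded and 0.728 FPKM in LV banded libraries. In banded hearts the RV differed from the LV by 1.97 for Myl4, 1.26 for Myl7 and 2.24 for Sln on the log2 scale (limma adjusted p = 0.491, 0.767 and 0.469). In sham hearts the differences were -0.59, -0.21 and -0.78 (limma adjusted p = 0.821, 0.951 and 0.778), and the sign of each turned in at least 1 omission of a library. The RV banding effect minus the LV effect was 2.56 for Myl4, 1.47 for Myl7 and 3.02 for Sln (limma adjusted p = 0.478, 0.763 and 0.439). For Gja5 it was -0.58 (limma adjusted p = 0.44), with -0.25 between banded and 0.32 between sham ventricles (adjusted p = 0.735 and 0.484).

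Libraries differed in depth and scale. The FPKM gave an estimated 2.67e+06 to 6.57e+06 fragments in RV banded, 383000 to 1.43e+06 in RV sham, 3.77e+06 to 1.14e+07 in LV banded and 2.02e+06 to 4.65e+06 in LV sham libraries. The shallowest library of each gene held an estimated 9.29 fragments of Stard10, 18.2 of Kcnj3 and 5.43 of Gja5. Of the banded libraries, 5 listed Rn45s at 0, 2 of the RV and 3 of the LV, and the median difference over all genes was 0.26 in the RV and 0.33 in the LV as deposited, or 0.11 and 0.01 rescaled. Exons of Myl4, Kcnj3 and Gja5 overlap genes on the opposite strand (Gm22000, Gm26794 and Gpr89), and whether counting used strand is not given in the sources used here.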

How the data were processed

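PolyA RNA of 16 libraries, 4 per group, was analysed from the per-replicate table. Its values are FPKM, which the authors deposited. Per the submitters' processing notes, the tools named were FastQC 0.11.5, STAR 2.5.3a, Cufflinks 2.2.1, Cuffdiff and R 3.3.1, with genome build mm9. Counts were not used. The authors' table of group values was not used. Groups came from the titles and the treatment and tissue labels.

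A gene was fitted where at least 4 of 16 libraries reached 1 FPKM (12100 of 23946), on log2(FPKM + 1) with limma 3.58.1 (R 4.3.3, 4 group means, trended prior), as deposited and rescaled, with p-values adjusted over all tested genes. Fold changes on this scale understate changes of low genes. Ratios used a pseudocount of 0.1 and two-sided exact permutation tests (scipy 1.17.1). The fit was also run on simulated libraries with the same extra variation set for every gene. That setting is unlike the wide spread of Myl4, Myl7 and Sln, so the run does not bear on them.

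FPKM give no depth. Fragments were estimated from the lowest values of 3042 genes with 1 transcript, assuming a fragment length of 200 nt. These estimates and floors of 3 fragments cover counting error only. Promoter windows were RefSeq entries, which 6 of the 7 members had. They were on GRCm38.p6, and no coordinates were converted.

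The members and the lists of other genes were chosen, from general knowledge, with earlier results of these data known. All 7 members are reported. From each list the text names genes that passed or had up to 4 of the smallest p-values in the RV, and a set of genes fixed by name. Neighbours were the 3 single-symbol genes with the highest Pearson r. Other genes were named after their values were seen. Equal library numbers in the RV and the LV were taken as names only: the correlation of their deviations from the group means was -0.0964 to 0.16 and exceeded 0.1 in 1 of 8. Alternatives were other scalings, pseudocounts and filters, a correction for length and GC content, fits to fewer libraries, a block by number and omission of each library, run for the members and the ratios.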

Additional observations from a re-analysis of the deposited data

Results flagged for a closer look

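Among 82 groups of 4 values, 12 had a library far from the other 3 by Dixon's criterion on FPKM. Chance alone meets it in about 1 group in 20 where values are independent and normally distributed. FPKM need not be, and Myl4, Myl7 and Sln varied together, so the 12 cannot be set against that rate. LV banded library PS_9553 stood out for Myl4 (103 FPKM), Myl7 (122 FPKM) and Sln (33.4 FPKM), and also for Ins1, low in that group, at 4.51 FPKM. Myl7 in the banded LV passed the limma test as deposited, among omissions of 1 library, only without this one, and rescaled it passed in none (adjusted p = 0.0512 without it). RV sham library 1 stood out for Stard10 (26.2 FPKM), and without it the RV call for Stard10 held. LV sham library 2 held the only Bmp10 of its group (0.297 FPKM). LV sham library 1 stood out for Ins2 (1620.2 FPKM) and Ins1 (439 FPKM). Acta1 was high in RV sham library 4 (497 FPKM) and LV sham library 4 (343 FPKM), Atp2a2 in LV banded library PS_9552 (1766 FPKM) and Gja1 in RV banded library PS_9564 (296 FPKM).

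The banding effect on Stard10 differed between the ventricles, by -1.97 on the log2 scale (RV minus LV) in the interaction term of the limma fit.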

How the results depend on the processing

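The number of members that passed was 2 in the RV and 1 each in the LV, for the difference between ventricles and between sham and between banded ventricles as deposited. It was 1 in the RV (Stard10) with TPM scaling, in a fit to the 8 RV libraries and with Rn45s libraries only. Over all genes, 5833, 881 and 415 passed limma in those settings, against 2108 as deposited. In the LV it was 0 with TPM scaling and 2 in a fit to the LV libraries. There 76 and 2780 of all genes passed, against 1764 as deposited. For the difference it was 0 with TPM scaling (Stard10 -1.34, limma adjusted p = 0.0523), where 754 genes passed, against 733 as deposited. Between sham ventricles it was 0 with TPM scaling, after length and GC correction and in a fit to the sham libraries. The genes that passed there numbered 3027, 409 and 50, against 518 as deposited. Between banded ventricles it was 0 rescaled, with TPM scaling, after quantile normalization, after length and GC correction and with the replicate block. In that order 256, 0, 157, 210 and 208 of all genes passed, against 373 as deposited. With 1 library left out the counts ranged from 2 to 2, 0 to 1, 1 to 1, 0 to 1 and 0 to 1. All-gene counts ranged from 1203 to 2351, 788 to 2394, 448 to 929, 80 to 633 and 117 to 461. The replicate block gave Stard10 -0.88 between banded ventricles (limma adjusted p = 0.0738) and changed no other call, with 1 member for the difference and 1 between sham ventricles. With this block 475 genes passed for the difference and 131 between sham ventricles.

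Gja5 in the RV was -0.0294 rescaled, -0.15 after quantile normalization, -0.12 after length and GC correction, -0.17 with Rn45s libraries and -0.16 without RV banded library PS_9564 and RV sham library 4. Kcnj3 for the difference was 0.0191 rescaled and 0.46 with TPM scaling, and between sham ventricles 0.15 after length and GC correction. Gja5 between sham ventricles was -0.13 with TPM scaling. With 1 library left out, values ranged from -0.62 to 1.19 (Myl4), -1.01 to 1.34 (Sln) and -0.048 to 0.37 (Gja5) in the RV, and between sham ventricles from -1.20 to 0.46 (Myl4), -0.80 to 0.73 (Myl7) and -1.36 to 0.51 (Sln).

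With both genes at 5 FPKM or more, LV ratios differed by -0.0864 (Myl7 to Myl4), -0.969 (Sln to Myl7), 1.65 (Nppa to Myl7), -0.0411 (Myl7 to Myl2) and 0.731 (Myl4 to Myl3), with 1 banded library left, and the RV ratio of Myl4 to Myl3 by -0.105. With 1 library left out that RV ratio ranged from -0.105 to 1.91, Myl7 to Myl4 from -2.92 to -2.31 in the RV and -3.09 to -1.37 in the LV, and Sln to Myl7 from 2.0 to 3.83 and 0.38 to 2.04. Apart from settings that use fewer libraries, the cause of these changes was not tested. The shallow RV sham libraries limit what can be said of genes at a few FPKM.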
